A study of Mus musculus with 8 samples.

Results

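Rpl21, Rps18 and Rpsa are 3 of the 80 genes of cytosolic ribosomal proteins in a table of 22481 genes measured by RNA sequencing of mouse liver. They were chosen by their FPKM and count values in these samples, which in db/db liver were further below lean liver than those of the other 77 ribosomal protein genes. The values that chose them therefore appear here as a description, with no test. The study concerns fatty liver and the deubiquitylating enzyme RPN11, and its samples are 4 livers of db/db mice and 4 livers of lean mice, all male. A db/db mouse has a mutated leptin receptor, eats without restraint and becomes obese and diabetic. The strain label of the lean samples reads C57BL/6 and that of the other samples reads db/db alone, so genotype and background strain cannot be told apart. The sources used here give neither the age of the mice nor the animals behind each sample, so p-values rest on the spread between samples, which may be technical. RNA was total RNA from which ribosomal RNA had been removed.

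A ribosome is built from ribosomal RNA and about 1 copy of each ribosomal protein, so cells make these proteins in matched amounts, and the genes are usually expressed together at high levels. Rpl21 encodes eL21, a protein of the large subunit. Rps18 encodes uS13, a protein in the head of the small subunit, and its mRNA is a common reference in quantitative PCR. Rpsa encodes uS2, a small-subunit protein that is needed for maturation of the small subunit's RNA and that also gives rise to a laminin receptor at the cell surface. In humans, changes in RPSA cause congenital absence of the spleen. Mammalian genomes hold many processed copies of ribosomal protein mRNAs, most of them counted as pseudogenes, and a short read from a parent gene can match a copy as well.

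The livers held 12174842 to 16171684 estimated fragments each. The level per sample is given in FPKM, a count of fragments divided by transcript length and library size, and all log2 differences are db/db minus lean on the log2(FPKM + 1) scale unless another scale is named. Hepatocyte markers summed to 11526 to 13271 FPKM in db/db and 31522 to 38110 in lean samples, although Alb, the gene of albumin, was listed at 0 in all 8. Of 6 hepatocyte markers tested, 3 were lower in db/db and 0 higher, and 3 of 6 Kupffer cell markers were lower, with sums of 88.1 to 121.0 against 130.0 to 199.3 FPKM. Of 6 markers of sinusoidal endothelium, 2 were lower and 0 higher, with sums of 65.8 to 69.3 against 81.9 to 103.6 FPKM, and of 5 stellate cell markers 1 was higher and 1 lower. Over all 10943 genes tested with limma at an adjusted p under 0.05, 10.9% were lower and 15.5% higher. Their part in the differences below was not tested. In bulk liver, fewer cells of a type and less RNA per cell cannot be told apart.

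Rpl21 (ENSMUSG00000041453, mm10 chr5:146832890-146837032, plus strand) had a row close to 0 in the db/db samples. Its level was 199.4, 187.5, 219.4 and 155.8 FPKM in lean samples 1 to 4, and 1.23, 0.764, 0.776 and 0.899 FPKM in db/db samples 1 to 4. All 4 db/db values lay near 1 FPKM and far under the lowest lean value, with no overlap. The means were 190.5 ± 26.6 in lean and 0.917 ± 0.216 in db/db (SD, n = 4 each), a ratio of 207.8 and a log2 difference of -6.64. These db/db levels rested on 20, 10, 7 and 14 estimated fragments, against 1811, 1373, 1759 and 1283 in lean samples 1 to 4. With so few fragments the size of the ratio is imprecise, and the log2 difference moved with the pseudocount, from -7.56 at 0.1 to -5.04 at 5.

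Rps18 (ENSMUSG00000008668) started from one of the highest levels of the set. It had 814.5, 626.6, 755.2 and 681.6 FPKM in lean samples 1 to 4, and 88.2, 82.3, 120.6 and 103.9 FPKM in db/db samples 1 to 4. The highest db/db sample stayed below the lowest lean sample. The means were 719.5 ± 82.4 in lean and 98.7 ± 17.2 in db/db, a 7.29-fold ratio and a log2 difference of -2.86. The deposited row gives mm10 chr17:33951999-33966984 on the minus strand, coordinates it shares with the row of Vps52, a gene of vesicle tethering on the other strand. Libraries were stranded, but the sources used here do not say how strand entered the counting, so the split between both rows is uncertain. Vps52 went the other way, at 6.85 ± 2.12 FPKM in the lean group and 13.7 ± 2.05 FPKM in the db/db group (log2 difference 0.94, limma adjusted p = 0.00594).

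Rpsa (ENSMUSG00000032518, mm10 chr9:120127766-120132369, plus strand) followed a pattern close to that of Rps18. It had 330.6, 276.2, 387.9 and 324.1 FPKM in lean samples 1 to 4, and 47.1, 47.3, 60.2 and 58.7 FPKM in db/db samples 1 to 4. Again the groups were far apart with little spread within each. The means were 329.7 ± 45.8 in lean and 53.4 ± 7.12 in db/db, a 6.18-fold ratio and a log2 difference of -2.60. The ratio of Rps18 to Rpsa was 2.20 ± 0.222 in lean and 1.85 ± 0.119 in db/db, so these genes kept nearly the same proportion in both groups. The ratio of Rps18 to Rpl21 went from 3.81 ± 0.499 to 112.6 ± 34.3.

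**Figure D1:**
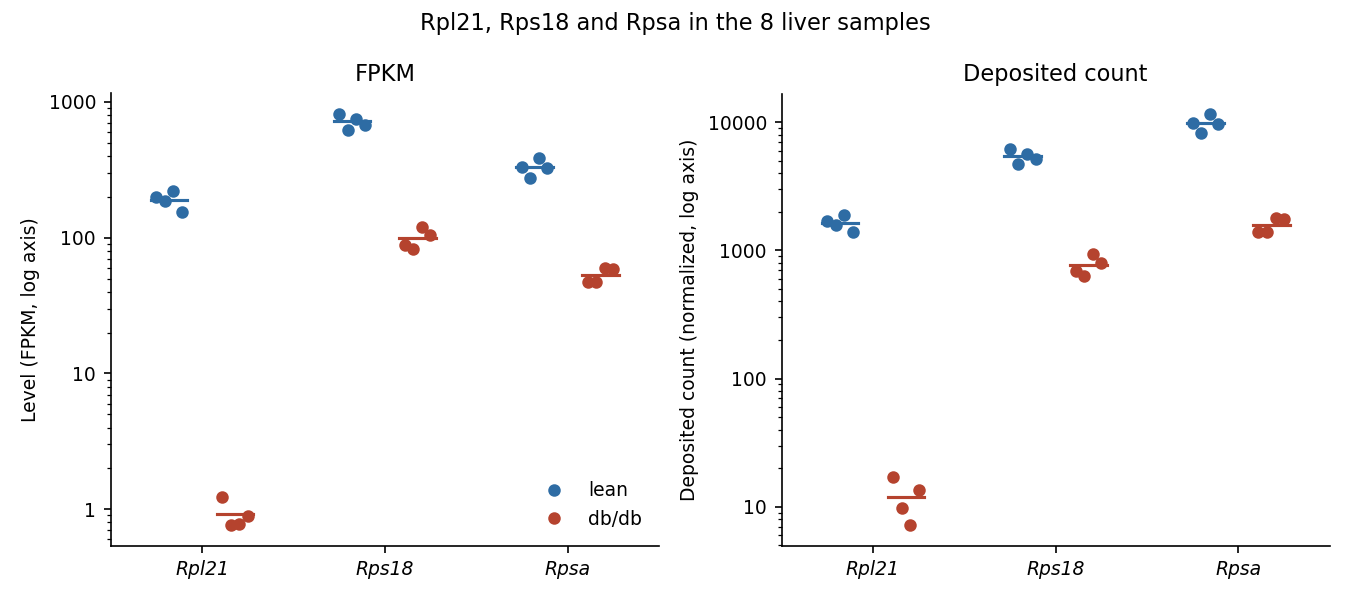
Levels of Rpl21, Rps18 and Rpsa in each of the 8 liver samples, as FPKM (left) and as the deposited normalized count (right), on log axes. Points are samples and bars are means of 4 samples: the db/db points lie below the lean points for each gene in both measures, and Rpl21 in db/db lies near 1 FPKM.

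The second measure in the table, a normalized count per gene, gave the same order. Deposited counts of Rpl21 were 11.9 ± 4.30 in db/db and 1638 ± 204.5 in lean, a log2 difference of -7.05 on the log2(count + 1) scale. Rps18 had 763.2 ± 131.6 against 5421 ± 609.0 (log2 difference -2.84), and Rpsa had 1581 ± 215.0 against 9808 ± 1383 (log2 difference -2.63). The groups did not overlap for any of the 3 genes in either measure. Both measures were used to choose the genes, so nothing is read from this. In FPKM, 11.6% of all tested genes had every db/db sample below every lean sample.

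The rank of the 3 genes within the ribosomal protein set changed between the groups. By FPKM, a level per length of transcript, Rps18 held places 7 to 10 of 80 in the lean samples and places 71 to 74 in the db/db samples. Rpsa went from places 44 to 56 to places 76 and 77. Rpl21 was already among the lower members in lean liver, at places 67 to 74, and had the lowest value of all 80 in every db/db sample. The coefficient of variation in lean samples was 14.0% for Rpl21, 11.5% for Rps18 and 13.9% for Rpsa, against a median of 10.1% over the other 77 genes. In db/db samples it was 23.6%, 17.4% and 13.3%, against a median of 12.1%, and for Rpl21 it was 36.3% in deposited counts.

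The other ribosomal protein genes were lower too, by less. By limma at an adjusted p under 0.05, 74 of the 77 were lower in db/db and 0 higher, where 10.9% of all 10943 tested genes were lower, 15.5% were higher and 26.4% were called in either direction. In 74 of 77 every db/db sample lay below every lean sample, a pattern seen in 11.6% of tested genes. Their median log2 difference was -0.70, with a range from -1.41 to 0.14, while the median over all tested genes was 0.04. It was -0.72 for the 46 other large-subunit genes and -0.69 for the 31 other small-subunit genes. All 3 chosen genes were also called lower, from which nothing is read because the choice used this contrast. Ordered by log2 difference, Rpl21, Rps18 and Rpsa were at places 1, 2 and 3 among the 80 genes, and at places 4, 33 and 41 among all tested genes.

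The genes just outside the chosen ones by FPKM were Rpl15, Rpl34, Rps2 and Rps21. Rpl15, of the large subunit, had 104.5 ± 14.6 FPKM in lean livers and 39.2 ± 9.79 FPKM in db/db ones (log2 difference -1.41), but in the count columns its log2 difference was -0.78, at place 37 of 80. The large-subunit gene Rpl34 had a log2 difference of -1.36, and the small-subunit genes Rps2 and Rps21 had -1.32 and -1.15. In both measures there was thus a gap of more than 1 log2 unit between Rpsa and the next gene. At the upper end, the row of Rpl24 held 2.18 ± 0.128 FPKM in lean and 2.52 ± 0.516 FPKM in db/db livers. Its deposited count per FPKM, proportional to the transcript length used, was 65.8 in lean and 72.5 in db/db livers. For Rpsa these values were 29.7 and 29.6. The coding sequence taken for Rpl24 was 3153 bases long, against 888 for Rpsa. Whether this row stands for the usual Rpl24 transcript was not tested, so its low FPKM may not be the level of the gene. Rpl4 had the next highest difference (-0.33).

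**Figure D2:**
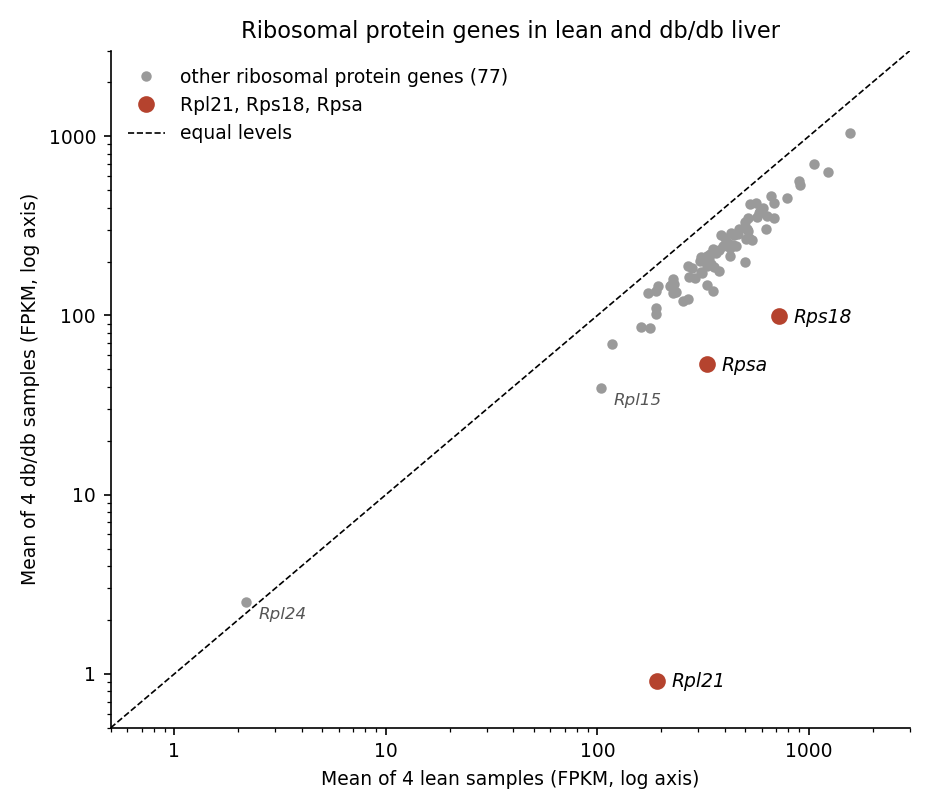
Mean FPKM of 4 db/db samples against mean FPKM of 4 lean samples for the 80 ribosomal protein genes, on log axes, with a dashed line of equal levels. Most genes form a band slightly below the line; Rpl21 (0.917 against 190.5), Rps18 (98.7 against 719.5) and Rpsa (53.4 against 329.7) lie far below it.

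Each of the 3 genes has copies of similar sequence in the mouse genome. Among GENCODE transcripts of the build GRCm38, which is mm10, transcripts of 99 other genes matched at least 80% of the Rpl21 coding sequence at an identity of at least 80%, as did 20 for Rps18 and 23 for Rpsa. At an identity of at least 95% the numbers were 57, 6 and 10. The median over the other 77 ribosomal protein genes was 14 and the highest was 136, and 2 of them had as many copies as Rpl21 or more. Most copies have no row in the table, 95 of 99 for Rpl21, 18 of 20 for Rps18 and 22 of 23 for Rpsa. These numbers count genes, and some genes share a stretch of genome. Gm10045 holds the same Rpl21 match as BC004004, and Gm26619 matches Rps18 in antisense, overlapping Gm10260 on the other strand. At the higher identity, the rows with values were BC004004 for Rpl21, Gm10260 and Rps18-ps3 for Rps18, and Rpsa-ps10 for Rpsa. These copies were looked for after the values of the 3 genes were known, and their rows get no test here.

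The likeness is close enough to show letter by letter. The pairs below each cover 100 bases of coding sequence, 5′ to 3′, in the stretch where parent and copy differ most, with the differing bases in capitals. Positions count from 1 at the first base of the start codon, and the parent's base comes first in each substitution.
Rps18: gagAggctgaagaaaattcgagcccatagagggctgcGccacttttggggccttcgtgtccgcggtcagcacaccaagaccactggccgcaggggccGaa
Gm10260: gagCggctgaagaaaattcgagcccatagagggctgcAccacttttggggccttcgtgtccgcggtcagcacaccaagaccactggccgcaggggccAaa
Rpsa: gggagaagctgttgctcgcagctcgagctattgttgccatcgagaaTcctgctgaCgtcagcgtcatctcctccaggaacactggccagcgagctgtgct
Rpsa-ps10: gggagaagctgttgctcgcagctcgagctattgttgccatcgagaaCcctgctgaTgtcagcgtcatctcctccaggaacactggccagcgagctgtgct
Rpl21: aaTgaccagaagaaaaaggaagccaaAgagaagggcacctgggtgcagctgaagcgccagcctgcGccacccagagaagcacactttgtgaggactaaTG
BC004004: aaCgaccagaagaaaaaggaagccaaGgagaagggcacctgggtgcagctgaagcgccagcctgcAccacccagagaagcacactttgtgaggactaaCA
The Rps18 stretch spans coding positions 334 to 433, in 2 exons at GRCm38 chr17:33952221-33952270 and chr17:33952069-33952118 on the minus strand, and its copy lies in 1 piece at chr13:97760156-97760255 on the minus strand. Rps18 and Gm10260 differed at 4 of 456 coding bases compared (T186C, A337C, G371A and G431A), and the longest run without a difference was 185 bases. The Rpsa stretch, positions 164 to 263, lies in exons at chr9:120129188-120129276 and chr9:120130118-120130128 on the plus strand, and its copy at chr3:150073280-150073379 on the minus strand. Rpsa and Rpsa-ps10 differed at 6 of 885 bases (C25A, T210C, C219T, C345G, C696T and G858A), with a longest shared run of 350 bases. The Rpl21 stretch, positions 334 to 433, lies at chr5:146835655-146835714 and chr5:146835864-146835903 on the plus strand, and its copy at chr17:29308471-29308570 on the plus strand, inside the much longer gene BC004004. Over 480 bases Rpl21 and this copy differed at 7 (C5T, G105C, T336C, A360G, G399A, T432C and G433A), and their longest shared run was 230 bases.

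For Rps18 and Rpsa, 1 close copy each was higher in db/db liver while the parent gene was lower. Gm10260 (chr13:97760072-97760632, minus strand), a retrogene copy of Rps18 that GENCODE lists as protein coding, had 6.27, 6.31, 5.54 and 7.17 FPKM in lean samples 1 to 4, and 278.3, 321.7, 331.3 and 312.1 FPKM in db/db samples 1 to 4. The db/db values were all above the lean ones, with a ratio of means of 49.2 and a log2 difference of 5.41. Rps18-ps3, the other close copy of Rps18, was not higher in db/db and overlapped between the groups, at 8.03 ± 1.89 FPKM in lean livers and 5.82 ± 1.88 FPKM in db/db ones. Rpsa-ps10 (chr3:150072658-150073542, minus strand), a processed pseudogene, had 35.6, 31.8, 38.9 and 30.6 FPKM in lean samples 1 to 4, and 139.8, 149.4, 139.2 and 142.7 FPKM in db/db samples 1 to 4. These groups were also apart, with a 4.17-fold ratio and a log2 difference of 2.03.

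For Rpl21 the copy moved far less than the parent. BC004004 had 56.1 ± 6.71 FPKM in the lean group and 73.8 ± 6.37 FPKM in the db/db group, a log2 difference of 0.39, with the lowest db/db sample (66.3) above the highest lean sample (63.1). This row covers chr17:29268788-29314065 and therefore far more than the matching stretch. The other Rpl21 copies with a row were at 83.1% identity or had values near 0: Rpl21-ps6 had 1.05 ± 0.728 FPKM in db/db livers against 0.686 ± 0.452 FPKM in lean ones, and Rpl21-ps4 was listed at 0 in all samples.

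Shares of the summed FPKM differed between the groups. Each sum holds the parent's own value, which chose the 3 genes, so a lower parent raises the share of the copies by itself. Close copies made up 76.3% ± 2.58 of the sum with Rps18 in db/db samples and 1.96% ± 0.131 in lean samples. For Rpsa their share was 72.8% ± 2.99 against 9.45% ± 0.734, and for Rpl21 it was 98.8% ± 0.387 against 22.8% ± 1.51 (SD, n = 4 each). The share for Rpl21 mostly restates the low Rpl21 row, since BC004004 had 73.8 FPKM in db/db and 56.1 FPKM in lean livers. Whether reads of the parent genes were placed on the copies was not tested, since the table holds no reads.

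**Figure D3:**
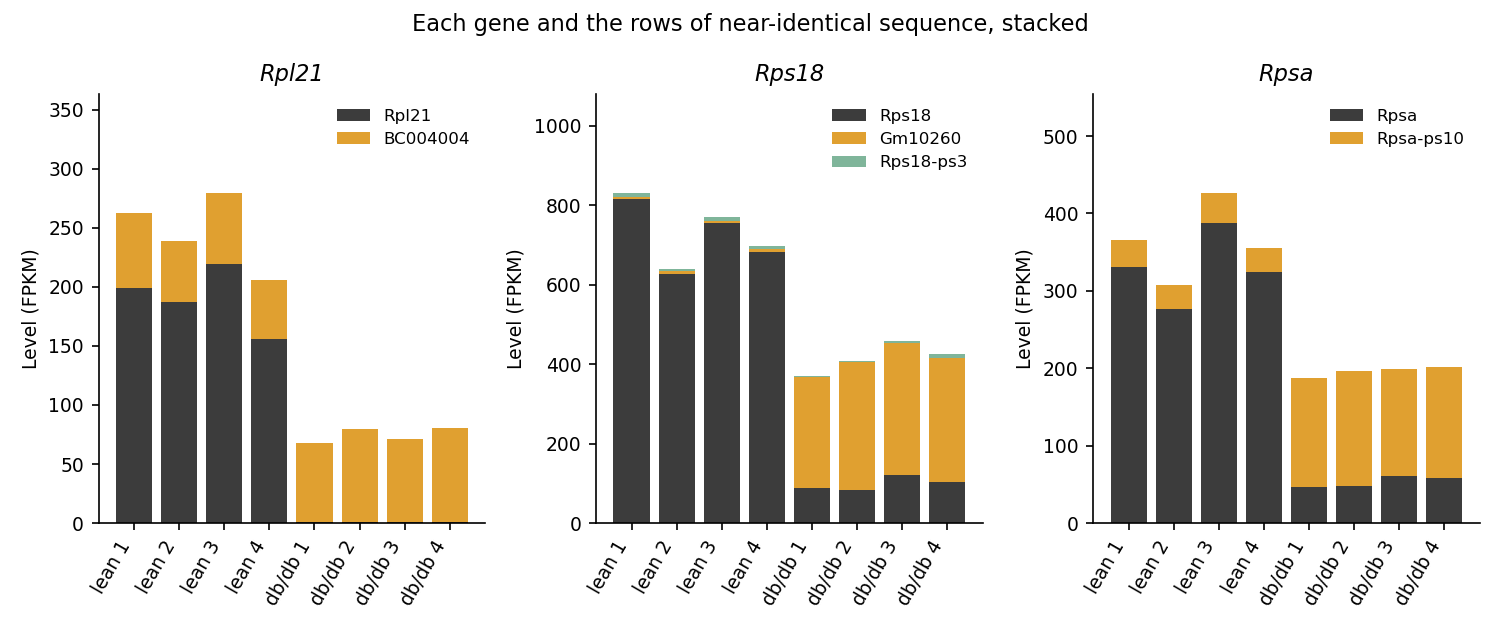
FPKM of Rpl21, Rps18 and Rpsa (dark) and of the table rows of their close copies (light), stacked for each of the 8 samples. Close copies match the coding sequence at an identity of at least 95%. Axes start at 0. In db/db samples the dark part shrinks and, for Rps18 and Rpsa, the light part grows, so that the stack heights differ less than the dark parts do.

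Summed with their close copies in FPKM, Rps18 and Rpsa were lower in db/db by amounts inside the range of the other ribosomal protein genes. The sum with Rps18 was 415.4 ± 36.2 FPKM in db/db and 733.9 ± 84.0 in lean, a log2 difference of -0.82. For Rpsa it was 196.1 ± 6.43 against 363.9 ± 48.9, a log2 difference of -0.88. When every ribosomal protein gene was summed with its own close copies, the median of the other 77 stayed at -0.70, and Rps18 and Rpsa moved to places 27 and 17 of 80. The sum with Rpl21 remained the lowest of the 80 in FPKM, at 74.7 ± 6.23 against 246.6 ± 32.2, a log2 difference of -1.70. In all 3 sums every db/db sample lay below every lean sample, as in 11.6% of all tested genes taken as single rows in FPKM.

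The order of the sums depended on the measure. In deposited counts the sum was -1.18 for Rps18 on the log2(count + 1) scale, at place 5 of 80, and -1.45 for Rpsa, at place 1, below Rpl34 at -1.37. The count sum of Rpl21 and BC004004 had a log2 difference of -0.77, at place 33. A sum adds rows of different lengths, so FPKM and counts weight parent and copy differently, and neither sum is a measured level of 1 transcript. In both measures the differences of the 3 genes were smaller once summed than alone. Adding rows that were higher in db/db, or less low than the parent, must give this, so nothing is read from it.

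**Figure D4:**
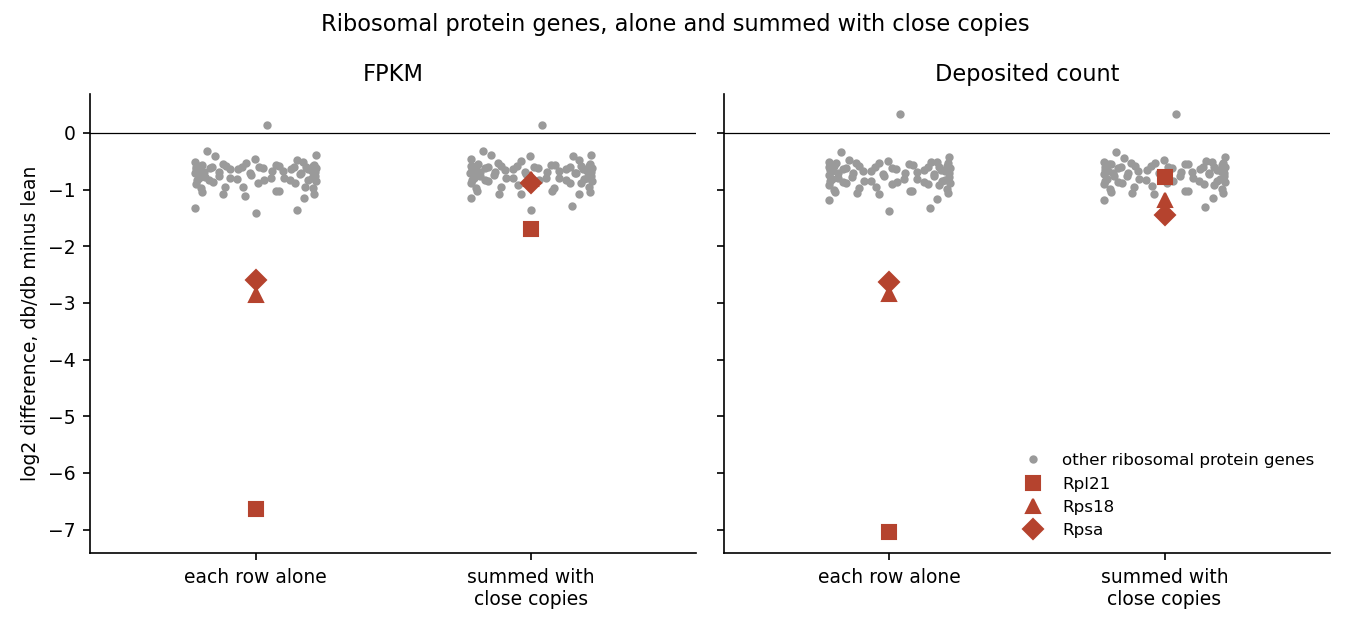
Log2 difference, db/db minus lean, of Rpl21, Rps18 and Rpsa (red) and the other 77 ribosomal protein genes (grey), for each row alone and for rows summed with close copies, in FPKM (left) and deposited counts (right). Alone, the red symbols lie at -6.64, -2.86 and -2.60 in FPKM; summed, they lie at -1.70, -0.82 and -0.88.

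Among 55 close copies of the other ribosomal protein genes, 45 were tested, and 4 were higher and 23 lower in db/db, where 15.5% of all tested genes were higher and 10.9% lower. The 4 were Gm10020 and Gm8420, copies of Rpl15, Gm8730, a copy of Rplp0, and Rps2-ps6, a copy of Rps2. Gm8420 had 0.0291 ± 0.0582 FPKM in lean livers and 2.26 ± 0.914 FPKM in db/db ones. It passed the filter only through its db/db samples, so nothing is read from its call. Gm10020 had 0.694 ± 0.419 FPKM in lean livers and 18.8 ± 3.08 FPKM in db/db ones, and with its copies the log2 difference of Rpl15 went from -1.41 to -0.80. Gm8730 had 41.7 ± 1.98 FPKM in db/db livers against 7.35 ± 0.365 in lean ones, and Rplp0 went from -0.59 to -0.39 when summed with it. Rps2 went from -1.32 to -1.29, as its copies were low beside it. Across the 29 other genes with a close copy in the table, the median was -0.68 alone and -0.69 summed.

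The transcript length behind the values also differed between the groups for Rpl21. A deposited count divided by FPKM is proportional to the length used, and for Rpl21 it was 8.49, 8.38, 8.60 and 8.99 in lean samples 1 to 4, and 13.9, 12.7, 9.27 and 15.1 in db/db samples 1 to 4. The ratio of the group means was 1.48, on 7 to 20 fragments per db/db sample. For Rps18 it was 1.03 and for Rpsa 0.996. Over the other ribosomal protein genes the median was 0.990, with 67 of 77 within 5% of 1 and the highest, 1.58, in Rpl15.

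Other genes of ribosome production are set here against all tested genes, of which 10.9% were lower, 15.5% were higher and the median log2 difference was 0.04. Of 38 genes of ribosome biogenesis tested, 12 were lower and 0 higher, with a median log2 difference of -0.27. Nop56, of the particles that methylate ribosomal RNA, fell from 39.2 ± 4.77 to 19.4 ± 2.43 FPKM (log2 difference -0.98, limma adjusted p = 0.000362). Riok2, a kinase of late small-subunit maturation, fell from 10.8 ± 0.642 to 6.07 ± 0.837 FPKM (log2 difference -0.74, limma adjusted p = 0.00114). The most abundant, Npm1, a nucleolar chaperone, had 96.8 ± 14.4 FPKM in the lean group and 70.6 ± 6.18 FPKM in the db/db group (limma adjusted p = 0.0272), a call that was lost without db/db 1 or 3 or lean 1, 2 or 4.

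RNA polymerase I makes the precursor of ribosomal RNA, and 2 of 13 tested genes of this machinery were lower and 0 higher, a share of lower genes near the 10.9% over all tested genes. Polr1d, a subunit shared with RNA polymerase III, fell from 44.6 ± 2.75 to 24.9 ± 9.40 FPKM (log2 difference -0.87, limma adjusted p = 0.00835). Polr1b, the second largest subunit, had 2.84 ± 0.387 FPKM in db/db livers against 4.09 ± 0.627 FPKM in lean ones (limma adjusted p = 0.0457). Its call was lost with no filter, with the replicate number as a block and when any sample other than lean 4 was left out. Of 37 translation factors, 12 were lower and 0 higher, with a median of -0.16, beside the same 10.9% lower and 15.5% higher over all tested genes. Eif4ebp1, an inhibitor of the cap-binding factor, fell from 55.8 ± 5.24 to 26.8 ± 2.24 FPKM (log2 difference -1.03, limma adjusted p = 7.45e-05). Eef1b2, an exchange factor of elongation, fell from 298.6 ± 23.9 to 181.9 ± 19.8 FPKM (log2 difference -0.71, limma adjusted p = 0.000963). Eef1a1, the elongation factor that carries tRNA to the ribosome, was the most abundant at 3116 ± 260.4 FPKM in lean livers and 2373 ± 209.3 FPKM in db/db ones (limma adjusted p = 0.0339). This call was lost in counts, with voom, with no filter, with the replicate number as a block and without db/db 2 or 3 or lean 1, 3 or 4.

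Of the 9 genes listed as paralogs of ribosomal proteins 5 were tested, and 2 were lower and 0 higher. Over all tested genes 10.9% were lower and 15.5% higher. Rpl22l1 fell from 49.2 ± 4.62 to 22.8 ± 5.90 FPKM (log2 difference -1.11, limma adjusted p = 0.00123). Rpl36al had 585.5 ± 61.4 FPKM in the lean group and 457.0 ± 37.6 FPKM in the db/db group (limma adjusted p = 0.0406). This call was lost with no filter, with the replicate number as a block and without db/db 1, 2 or 3 or lean 1, 3 or 4. Rpl7l1, Rps27l and Rpl9-ps6 were not called, and Rpl3l, Rpl39l and Rps4y2 had means of at most 0.120 FPKM. Rpl9-ps6 is a close copy of Rpl9 and is also among the 45 tested copies above.

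Since Rps18 mRNA serves as a reference in quantitative PCR, 16 other genes in that use were listed beside it, and 3 were higher and 3 lower in db/db, close to the 15.5% higher and 10.9% lower over all tested genes. Hprt, a purine salvage enzyme, rose from 38.9 ± 4.77 to 83.9 ± 4.54 FPKM (log2 difference 1.10, limma adjusted p = 5.94e-05). Rpl13a, itself a large-subunit protein gene, fell from 1234 ± 211.8 to 630.8 ± 81.6 FPKM (log2 difference -0.96, limma adjusted p = 0.000953). The most abundant, B2m, had 2700 ± 452.1 FPKM in db/db livers against 2958 ± 281.8 FPKM in lean ones (limma adjusted p = 0.511). Rps18 alone, at a log2 difference of -2.86, lay further from 0 than any of these 3. That value chose the gene, so nothing is read from the comparison. Summed with its close copies, Rps18 was at -0.82 in FPKM and -1.18 in deposited counts.

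Rpsa is also named for a laminin receptor, and 9 genes of laminins and their other receptors were tested, of which 1 was higher and 1 lower, near the 15.5% higher and 10.9% lower over all tested genes. Lama3, a laminin chain, had 0.813 ± 0.241 FPKM in lean livers and 0.169 ± 0.243 FPKM in db/db ones (log2 difference -0.64, limma adjusted p = 0.0128). Dag1, the gene of dystroglycan, had 2.02 ± 1.01 FPKM in the lean group and 5.48 ± 2.34 FPKM in the db/db group, with overlap between single samples (limma adjusted p = 0.0139). Itgb1, an integrin chain and the most abundant, had 42.5 ± 5.61 FPKM in db/db livers against 36.5 ± 2.94 FPKM in lean ones (limma adjusted p = 0.214). No shared direction with Rpsa was seen in this list.

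The genes most like the 3 across samples were sought by Pearson's r of log2(FPKM + 1) over the 8 samples, which form 2 groups, so that any gene with a clean gap in the same direction scores high. For Rpl21 they were mt-Co1 (r = 0.998), BC048546 (r = 0.997) and Mug2 (r = 0.996). The mitochondrial gene mt-Co1 was listed at 0 in every db/db sample and had 11488 ± 1301 FPKM in lean ones. Why its row was at 0 was not tested. Mug2, a protease inhibitor of the liver, had 5.76 ± 0.454 FPKM in db/db livers against 78.1 ± 12.4 FPKM in lean ones. For Rps18 they were Ifngr1, a chain of the interferon gamma receptor (r = 0.9997), Rpsa (r = 0.997) and BC048546 (r = 0.996). For Rpsa they were Ifngr1 (r = 0.997), Rps18 (r = 0.997) and Cela1, an elastase (r = 0.993). Ifngr1 moved much less than either, from 9.12 ± 0.232 to 6.06 ± 0.249 FPKM. An r above 0.95 was reached by 189 genes with Rpl21, 197 with Rps18 and 201 with Rpsa.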

How the data were processed

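Liver RNA of 8 samples, 4 db/db and 4 lean, was grouped and numbered by the sample titles. The submitters' processing notes name HISAT2 2.0.4, cutadapt 1.9.3, Cuffdiff and Cufflinks and the build mm10 without roles. The table deposited by the authors holds FPKM per gene, per the file headers; the sources used here do not state the transcript lengths. Its columns headed counts hold a normalized signal deposited by the authors: 91.4 to 92.0% of values below 2000 steps were whole multiples of 1 step per library (0.850 to 1.14), within 0.05 of a step. Dividing by the step gave estimated fragments, of which each sample had 12174842 to 16171684. Because the columns are not raw counts, FPKM was the main measure.

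Rows of 1 symbol were summed (162 rows of 79 symbols), which gave 22481 genes. Genes with FPKM of at least 0.5 in at least 4 samples (10943) entered limma 3.58.1 in R 4.3.3 on log2(FPKM + 1), a scale that understates changes of low genes (eBayes with trend, 2-sided, Benjamini-Hochberg adjusted, threshold 0.05). The script was tested on simulated data. Folds are ratios of mean FPKM. Copies were found with blastn 2.17.0, coding sequence of each ribosomal protein gene against GENCODE M21 transcripts, and summed at 95% identity or more. The 3 genes and all gene lists were chosen with earlier results of these data known. Named genes were the 3 genes, their close copies, the 4 lowest, 2 highest and most abundant of the other ribosomal protein genes, the 3 genes of highest r per gene, all detected paralogs, and per further list the 2 called genes of smallest adjusted p and the most abundant one. Likeness was judged on coding sequence, since no protein table was used. A gene that the rule names is not reported here. Genes outside this rule, such as Gm10020 and Gm8730, were chosen after their values were seen. Alternatives were other pseudocounts, filters, scalings, the count columns, voom, a replicate block, leaving out each sample and, chosen after seeing the data, sums with close copies.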

Additional observations from a re-analysis of the deposited data

Results flagged for a closer look

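Among 82 groups of 4 samples (41 named genes in 2 groups), 3 held a sample far from the others by Dixon's test, and chance gives about 1 in 20. None was a value of Rpl21, Rps18 or Rpsa or of a close copy. Npm1 had 75.3 FPKM in lean 3, against 101.4 to 105.6 in the other lean samples. Polr1d had 38.9 FPKM in db/db 4, where the other db/db samples had 18.5 to 21.8. Lama3 had 0.533 FPKM in db/db 1, where the rest of its group had 0.0218 to 0.0770.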

How the results depend on the processing

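Rps18 and Rpsa alone kept their direction and moved by less than the spread between samples under other pseudocounts, filters and scalings, in the count columns, with voom and with a replicate block, from -2.96 to -2.78 and from -2.69 to -2.52 when 1 sample was left out. For Rpl21 the log2 difference was -6.73 to -6.57 with 1 sample left out, -7.56 with a pseudocount of 0.1, -5.04 with a pseudocount of 5, -7.05 in the count columns and -7.05 with voom on estimated fragments. Summing with close copies moved all 3, to -1.70, -0.82 and -0.88 for Rpl21, Rps18 and Rpsa in FPKM and to -0.77, -1.18 and -1.45 in the count columns. Of the 4 rows added, Gm10260, Rpsa-ps10 and BC004004 were higher in db/db and Rps18-ps3 was not. The median of the other ribosomal protein genes was -0.75 to -0.64, and 71 to 75 of them were lower, with 1 sample left out.

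No pairing by replicate number was seen. Same-numbered samples deviated from their group means with correlations of -0.221, 0.0293, 0.110 and -0.00925, against -0.234 to 0.295 for differently numbered ones. With 4 samples per group this cannot exclude a pairing. With the number as a replicate block, 1472 genes were higher and 1042 lower, 73 other ribosomal protein genes were lower, and the log2 differences of Rpl21, Rps18 and Rpsa stayed at -6.64, -2.86 and -2.60. Among named genes the block ended the calls of Rpl4, Rpl36al, Polr1b and Eef1a1. In the main fit, without a block, 26 genes of the lists of ribosome biogenesis, RNA polymerase I and translation factors were lower and 0 higher. These lists held 38, 13 and 37 tested genes. Over all tested genes, 10.9% were lower and 15.5% higher. With 1 sample left out, 18 to 24 genes of these lists were lower. The number higher was 1 with the block, 2 with voom and 0 to 1 with 1 sample left out. The cause was not tested. For Rpl21, the 7 to 20 fragments per db/db sample limit the precision.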

Other observations

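Of the 12 rows nearest to the 3 genes on their chromosomes, 1 was called lower, H2-K1, and 1 higher, Vps52. The former, a major histocompatibility gene and second from Rps18 in the table's order at mm10 chr17:33996017-34000333, had 792.3 ± 49.8 FPKM in lean livers and 84.2 ± 17.1 FPKM in db/db ones (log2 difference -3.24, limma adjusted p = 1.86e-07, lower in 4 of 4 samples). Wdr46, on the other side of Rps18, had 7.58 ± 0.840 FPKM in db/db livers against 6.91 ± 1.26 FPKM in lean ones. Usp12, beside Rpl21, had, in the same order, 5.33 ± 1.27 against 4.41 ± 0.717 FPKM, and Slc25a38, beside Rpsa, had 12.4 ± 1.19 against 11.5 ± 0.379 FPKM. Limma called none of these last 3 (adjusted p = 0.544, 0.376 and 0.518). Gpr12, Rasl11a and Gm10858 near Rpl21, B3galt4 near Rps18 and Ccr8, Mobp and Myrip near Rpsa were too low to test. Within 1 Mb, 1 of 13 tested genes was lower and 3 were higher around Rpl21, 15 of 61 were lower and 3 higher around Rps18, and 3 of 14 were lower and 2 higher around Rpsa. The share called in either direction was 30.8%, 29.5% and 35.7%, against 26.4% of all tested genes. Around Rps18 most called genes were lower, where 10.9% of all tested genes were lower and 15.5% higher. The window was chosen after seeing the data.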
